A study of Homo sapiens
Mus musculus with 16 samples.

Results

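The genes described here are 8 human genes that are used as markers of breast cancer stem cells: CD44, CD24, ITGA6, PROM1, ALDH1A1, KLF4, SOX2 and SOX9. They were chosen as a named set by their Ensembl identifiers and are 8 of the 58051 genes in the human count matrix. They were read in xenografts of MDA-MB-231, a triple-negative line of mesenchymal type from a human breast cancer, grown in the mammary fat pad of Balb/c nude mice. Each mouse received 2 M cells in 50 µl of PBS and Matrigel, and tumours were taken on day 50. There were 4 groups of 4 mice, all injected into the peritoneum, with 1 library per tumour. Combination mice received nab-paclitaxel and phenelzine, nab-paclitaxel mice 30 mg/kg of nab-paclitaxel (Abraxane) on days 15, 22 and 29, phenelzine mice 40 mg/kg of phenelzine daily from day 15, and vehicle mice the vehicle alone. The combination used the same doses and days. In nab-paclitaxel the drug paclitaxel, which stabilises microtubules, is bound to albumin, and phenelzine inhibits monoamine oxidases. Nude mice lack a thymus, so the host holds few mature T cells, and the tumour cells come from a single established line.

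Breast cancer cells that start new tumours in mice were first sorted by their surface proteins, as cells with much CD44 and little CD24, and later by the activity of aldehyde dehydrogenases such as ALDH1A1. PROM1 and ITGA6 are further surface proteins used to sort such cells. KLF4 and SOX2 are transcription factors that take part in reprogramming differentiated cells to pluripotency, and SOX9 is a related factor of mammary progenitors. MDA-MB-231 is known as a line in which most cells carry CD44 and few carry CD24. These markers are defined mostly on the cell surface or by enzyme activity, and the values here are RNA of whole tumours. A change in the number of cells that carry a transcript and a change in its amount per cell cannot be told apart in such bulk libraries.

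Human gene totals ran from 11.1 to 34.5 M counts per library, and mouse gene totals from 3.46 to 27.4 M. Tumour cells are human and host cells mouse, so human counts were read as tumour counts. The mouse share of all counts was 48.3% ± 22.1 with the combination, 36.5% ± 18.1 with nab-paclitaxel, 12.6% ± 3.54 with phenelzine and 21.1% ± 11.5 with vehicle (SD, n = 4 each). In an earlier analysis of these data, nab-paclitaxel 1 and 4 and combination 1 and 3 stood apart from the other libraries in their human genes, and main results below are given with and without them. Their mouse shares were 59.7% and 41.9% for nab-paclitaxel 1 and 4, and 71.2% and 55.9% for combination 1 and 3. Levels below are counts per M human counts (CPM), scaled by TMM factors, and are compared between libraries and not between genes, since the files hold no transcript lengths. A gene is said to have risen or fallen where the adjusted p of edgeR's quasi-likelihood test over all 18131 human genes tested was under 0.05. The p-values measure the spread between tumours of different mice. All contrasts with vehicle share the same 4 vehicle libraries.

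By RefSeq's annotation of GRCh38.p14, the surface protein genes lie on 4 chromosomes: CD44 (ENSG00000026508) on chromosome 11 at 35139171 to 35232402, CD24 (ENSG00000272398) on chromosome 6 at 106969831 to 106976855, ITGA6 (ENSG00000091409) on chromosome 2 at 172427336 to 172506459, and PROM1 (ENSG00000007062) on chromosome 4 at 15968228 to 16084023. ALDH1A1 (ENSG00000165092) and KLF4 (ENSG00000136826) lie on chromosome 9, at 72900671 to 72953053 and at 107484852 to 107489769. SOX2 (ENSG00000181449) lies on chromosome 3 at 181711925 to 181714436, and SOX9 (ENSG00000125398) on chromosome 17 at 72121020 to 72126416. SOX2 lies wholly within the long noncoding gene SOX2-OT, and CD44 overlaps SNORD164 and CD44-AS1. ITGA6 overlaps ITGA6-AS1 and PDK1-AS1, and PROM1 overlaps LOC124900884. Whether counting used strand is not given in the sources used here. Reads of these overlapping genes cannot be told apart here from those of the markers they overlap. RefSeq lists 5 pseudogenes named after CD24 and 1 after KLF4, and the values of both genes are uncertain to the extent that reads were shared with such copies.

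One gene of the set, CD24, rose with nab-paclitaxel averaged over phenelzine and in the combination against phenelzine. Against vehicle it did not pass the test with the combination or with nab-paclitaxel (edgeR adjusted p = 0.0748 and 0.0791). The average call ended when the mouse share entered the fit as a covariate (edgeR adjusted p = 0.124). The other 5 that could be tested did not pass in any of the 8 comparisons made. CD24 averaged 95.9 ± 72.6 CPM in the 8 tumours with nab-paclitaxel, given alone or with phenelzine, and 11.1 ± 5.17 CPM in the 8 without (SD). PROM1 and ALDH1A1 stood at or near 0 in every library and did not pass the filter on low counts. The 6 that passed had at least 17 counts in each of the 16 libraries.

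**Figure D1:**
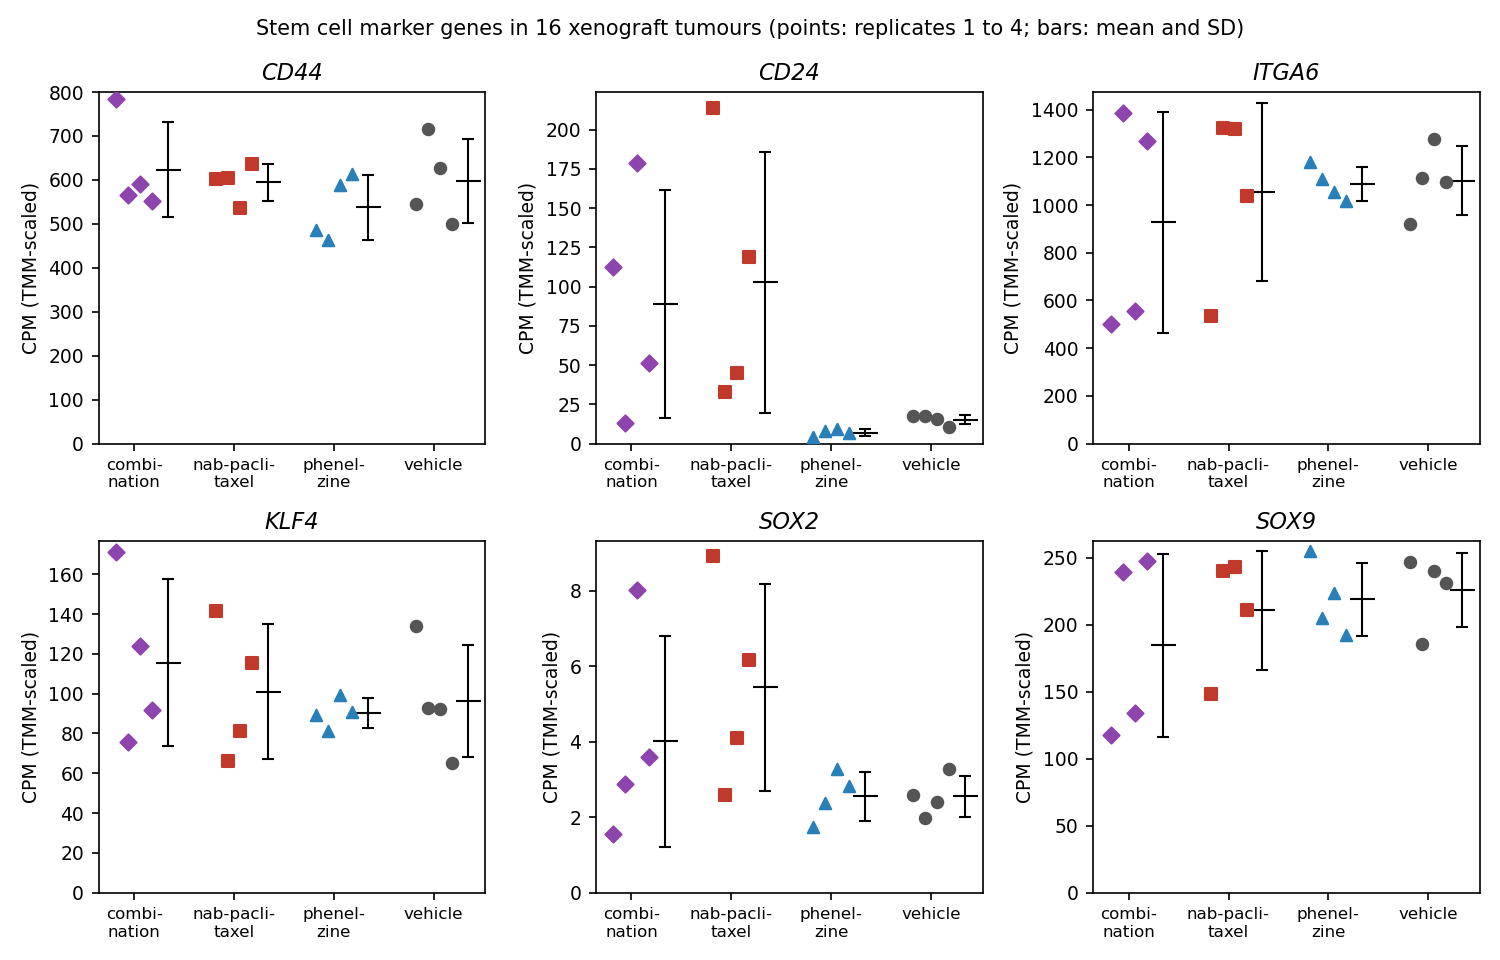
Level of the 6 tested marker genes in each tumour, in TMM-scaled CPM on linear axes from 0. Points are single tumours, and bars at their right show mean and SD of the 4 tumours of a group. CD24 reached 214 CPM with nab-paclitaxel and 179 CPM with the combination and stayed at or under 17.5 CPM with phenelzine or vehicle. ITGA6 and SOX9 were low in the same 3 tumours.

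When nab-paclitaxel was averaged over tumours without and with phenelzine, which set 8 libraries against 8, 1 of the 6 rose and 0 fell, where 17.3% of all genes tested were called and 11.2% rose. The median log2 fold change of the 6 was 0.16, against -0.01 over all genes, and the median absolute value 0.19, against 0.27. In the combination against phenelzine, 1 of the 6 rose and 0 fell, with 2.27% of all genes called and 1.65% risen. In the combination against vehicle 0 of the 6 passed edgeR's threshold, with 0.734% of all genes called, and in nab-paclitaxel against vehicle 0 of the 6, with 0.165% called. At an unadjusted p under 0.05 there were 1 of the 6 for the combination against vehicle, with 22.4% of all genes, and 2 of the 6 for nab-paclitaxel against vehicle, with 20.3%. DESeq2 called 1 of the 6, CD24, in each, with 8.69% of all genes called for the combination and 7.95% for nab-paclitaxel. The markers' shares at an unadjusted p under 0.05 are thus near those of all genes. In phenelzine against vehicle, the average effect of phenelzine and the interaction of the drugs, edgeR called 0 of the 6 and 0% of all genes, with 0 of the 6 at an unadjusted p under 0.05 in each and 0 called by DESeq2. Of all genes, 2.35% in phenelzine against vehicle, 2.2% in the average effect and 3% in the interaction had an unadjusted p under 0.05, and DESeq2 called 0.0221%, 0.0442% and 0.0607% in this order. In the combination against nab-paclitaxel edgeR called 0 of the 6 and 0.00552% of all genes. At an unadjusted p under 0.05 there were 0 of the 6 and 2.94% of all genes, and DESeq2 called 0 of the 6 and 0.0552%.

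CD44, the receptor for the matrix polymer hyaluronan, varied little between the groups. Its values were 784, 565, 591 and 552 CPM in combination tumours 1 to 4, and 602, 604, 536 and 636 CPM in nab-paclitaxel tumours. Phenelzine tumours had 485, 463, 588 and 613 CPM, and vehicle tumours 546, 717, 626 and 500.0 CPM. All 4 ranges overlapped, and combination 1 held the highest value of the 16. The mean was 609 ± 77.7 CPM with nab-paclitaxel and 567 ± 85.3 CPM without (SD, n = 8 each). The log2 fold change of this average effect was 0.10, with a 95% interval of -0.12 to 0.32 (edgeR adjusted p = 0.496). A mean change beyond 1.25-fold up or 0.922-fold down lies outside this interval.

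CD24, a small glycoprotein anchored in the outer membrane leaflet, had its highest values after nab-paclitaxel. Combination tumours 1 to 4 had 113, 13.2, 179 and 51.2 CPM, and nab-paclitaxel tumours 214, 33.1, 45.2 and 119 CPM. Phenelzine tumours had 3.90, 7.94, 9.14 and 6.43 CPM, and vehicle tumours 17.4, 17.5, 15.5 and 10.8 CPM. All nab-paclitaxel tumours thus lay above all vehicle tumours, all phenelzine tumours below them, and combination 2 lay within the vehicle range while the other combination tumours lay above it. In order of their means the groups were nab-paclitaxel (103 ± 83.1 CPM), combination (89.1 ± 72.7), vehicle (15.3 ± 3.13) and phenelzine (6.85 ± 2.26; SD, n = 4 each). Both groups with nab-paclitaxel spread widely, the combination over 13.5-fold and nab-paclitaxel alone over 6.45-fold, against 1.62-fold in vehicle and 2.34-fold in phenelzine tumours.

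The average effect of nab-paclitaxel on CD24 was a log2 fold change of 3.22 (SE 0.489, 95% interval 2.18 to 4.26, edgeR adjusted p = 0.00207), or 9.33-fold. By its p it ranked 75 and by its fold 363 among the 18131 genes. The call held without any single library, at log2 fold changes of 2.92 to 3.42 and adjusted p of at most 0.00769. Without nab-paclitaxel 1 and 4 and combination 1 and 3 the log2 fold change was 1.80 (edgeR adjusted p = 0.0167). These 4 tumours held the highest CD24 values of all, so leaving them out was bound to lower it. Only nab-paclitaxel 2 and 3 and combination 2 and 4 then remained with the drug, here and in the other fits without these 4. The call ended when the mouse share entered as a covariate (log2 fold change 2.01, edgeR adjusted p = 0.124).

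Against phenelzine, the combination had 13.0-fold more CD24 (log2 fold change 3.70, SE 0.708, 95% interval 2.19 to 5.21, edgeR adjusted p = 0.0309). The groups did not overlap, with the combination the higher, as in 5.53% of all genes. The call was lost without combination 1 (adjusted p = 0.0706) or 3 (0.0792), or without phenelzine 1 (0.105), 2 (0.0884), 3 (0.0591) or 4 (0.0927) in edgeR, at log2 fold changes of 3.58, 3.12, 3.52, 3.798, 3.88 and 3.69 in this order. It was also lost when the mouse share was a covariate (log2 fold change 2.20, edgeR adjusted p = 0.498) and without the 4 libraries that stood apart (2.24, edgeR adjusted p = 0.0639).

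Against vehicle, neither group with nab-paclitaxel passed the threshold for CD24. The log2 fold change was 2.54 with the combination (SE 0.672, 95% interval 1.11 to 3.97, edgeR adjusted p = 0.0748) and 2.74 with nab-paclitaxel (SE 0.677, 95% interval 1.30 to 4.19, edgeR adjusted p = 0.0791). Nab-paclitaxel and vehicle tumours did not overlap, with nab-paclitaxel the higher, as in 7.67% of all genes. These calls changed with single libraries. The combination passed without nab-paclitaxel 1 (edgeR adjusted p = 0.0491) or combination 2 (0.0150), and nab-paclitaxel passed without nab-paclitaxel 2 (0.0344) or combination 2 (0.0290), all in a fit where the 16 libraries share 1 estimate of the spread. Without nab-paclitaxel 1 and 4 and combination 1 and 3 the log2 fold change was 1.08 with the combination (edgeR adjusted p = 0.372) and 1.36 with nab-paclitaxel (edgeR adjusted p = 0.293). With the mouse share as covariate the values were 1.36 for the combination (edgeR adjusted p = 0.777) and 1.82 for nab-paclitaxel (edgeR adjusted p = 0.285). Between the combination and nab-paclitaxel the log2 fold change of CD24 was -0.20, with an interval of -1.55 to 1.14 (edgeR adjusted p = 1).

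Phenelzine tumours had less CD24 than vehicle tumours in every pair of tumours, but the difference did not pass the test. The log2 fold change was -1.16 (SE 0.653, 95% interval -2.55 to 0.23, unadjusted p = 0.0966 and adjusted p = 1 in edgeR). Its SE rests on a spread shared by all 16 libraries, and CD24 spread most in the groups with nab-paclitaxel. A fit of only phenelzine and vehicle tumours gave -1.15 (SE 0.262, edgeR adjusted p = 0.935). In 1.51% of all genes the groups did not overlap and phenelzine was the lower. The interaction, which sets the phenelzine effect beside nab-paclitaxel against that of phenelzine alone, had a log2 value of 0.95 (SE 0.905, 95% interval -0.98 to 2.88, edgeR adjusted p = 0.99997). It was 0.35 without combination 3, 1.60 without nab-paclitaxel 1 and 0.39 with the mouse share as covariate, and was not called in any of them.

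**Figure D2:**
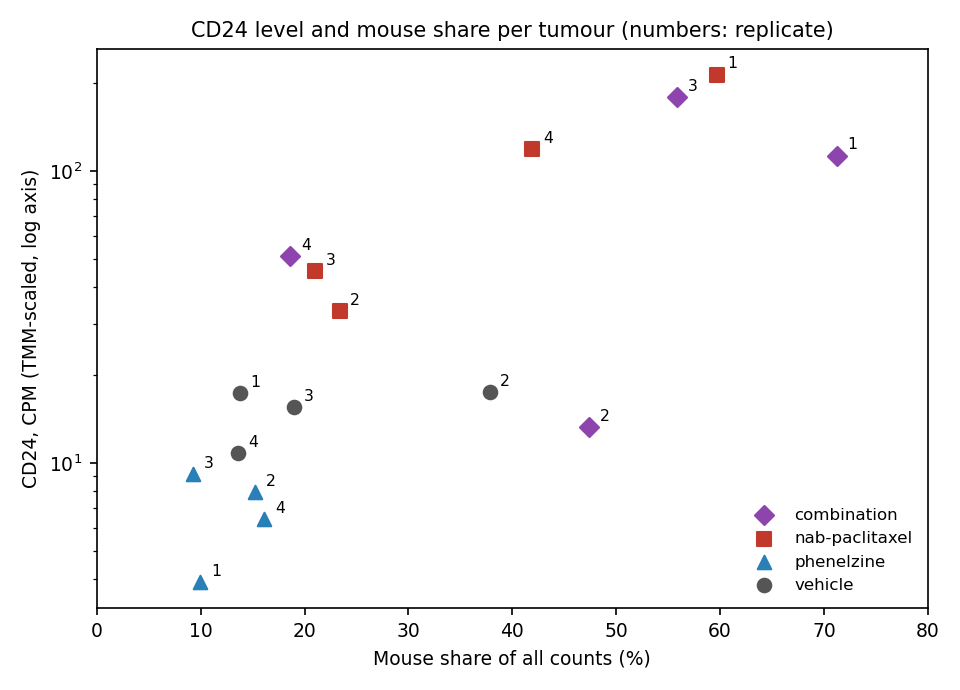
CD24 level (TMM-scaled CPM, log axis) against the mouse share of all counts (%) in each of the 16 tumours, with the replicate number beside each point. The 4 tumours above 100 CPM had mouse shares of 41.9% to 71.2%, while combination 2 (47.4%) and vehicle 2 (37.8%) had 13.2 and 17.5 CPM.

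The mouse share moved with CD24 in part. The 4 highest CD24 values, in nab-paclitaxel 1, combination 3, nab-paclitaxel 4 and combination 1, came with mouse shares of 59.7%, 55.9%, 41.9% and 71.2%. Combination 2 had a share of 47.4% with 13.2 CPM, and vehicle 2 a share of 37.8% with 17.5 CPM. Combination 4 had 51.2 CPM at a share of 18.6%, nab-paclitaxel 3 had 45.2 CPM at 21.0% and nab-paclitaxel 2 had 33.1 CPM at 23.4%, while vehicle 3 had 15.5 CPM at 19.0%. The share was itself higher with nab-paclitaxel (42.4% ± 19.7) than without (16.8% ± 9.04, SD, n = 8 each). The fit with the share as a covariate therefore cannot tell the share from the drug. The part of host RNA in the CD24 values was not tested, nor was the division of reads between the species.

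The ratio of CD44 to CD24 counts within a library does not depend on library size, and transcript lengths cancel when it is compared between libraries. It was 6.95, 42.7, 3.30 and 10.8 in combination tumours 1 to 4 and 2.82, 18.2, 11.9 and 5.36 in nab-paclitaxel tumours. Phenelzine tumours had ratios of 124.5, 58.3, 64.4 and 95.4, and vehicle tumours 31.4, 41.0, 40.4 and 46.2. All nab-paclitaxel tumours lay below, and all phenelzine tumours above, the vehicle range. In the combination 3 of the 4 tumours lay below it and combination 2 within it. CD44 itself spread over 1.69-fold in the 16 libraries and CD24 over 54.8-fold, so the ratio followed CD24. CD44 counts exceeded CD24 counts in each of the 16 tumours. Since the files hold no transcript lengths, this does not compare the levels of the 2 genes.

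**Figure D3:**
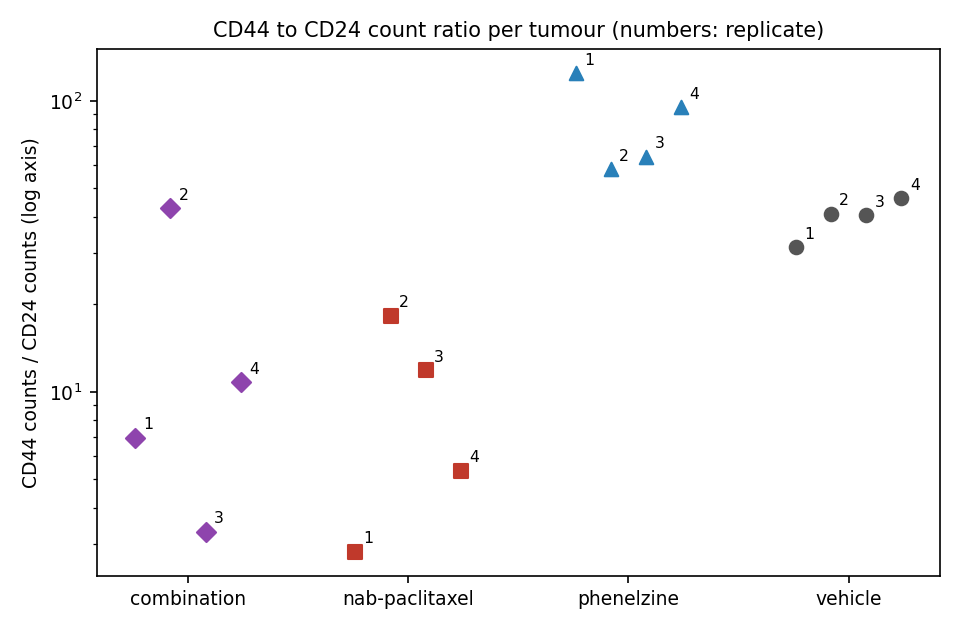
Ratio of CD44 to CD24 counts (log axis, not corrected for transcript length) in each tumour, with replicate numbers. Nab-paclitaxel tumours ran from 2.82 to 18.2 and combination tumours from 3.30 to 42.7, against 58.3 to 124.5 in phenelzine and 31.4 to 46.2 in vehicle tumours.

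ITGA6, the alpha 6 chain of laminin-binding integrins, had 503, 1386, 556 and 1269 CPM in combination tumours 1 to 4 and 533, 1325, 1320.2 and 1038 CPM in nab-paclitaxel tumours. Phenelzine tumours had 1180.4, 1110, 1054 and 1016 CPM, and vehicle tumours 921, 1112, 1277 and 1099 CPM. Tumours with nab-paclitaxel fell on both sides: combination 1, nab-paclitaxel 1 and combination 3 were the 3 lowest of the 16, at 45.7%, 48.4% and 50.4% of the vehicle mean. Combination 2 and nab-paclitaxel 2 were the highest, at 126% and 120.2%. The mean was 991 ± 395 CPM with nab-paclitaxel and 1096 ± 106 CPM without (SD, n = 8 each). The average effect was a log2 value of -0.15 with an interval of -0.63 to 0.33 (edgeR adjusted p = 0.669). Without nab-paclitaxel 1 and 4 and combination 1 and 3 its sign turned, to 0.27 (edgeR adjusted p = 0.165). These tumours held the lowest ITGA6 values among those with nab-paclitaxel, so leaving them out was bound to raise the value.

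PROM1, the membrane glycoprotein CD133, was close to undetected. It was listed at 0 in 7 of the 16 libraries and at 1 to 6 counts in the others. Its counts summed to 6 over the combination, 11 over the nab-paclitaxel, 11 over the phenelzine and 6 over the vehicle tumours. The highest level, 0.549 CPM in combination 1, rests on 6 counts. A count of 0 allows up to 3 counts, which is 0.0879 to 0.274 CPM depending on the library.

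ALDH1A1, which oxidises retinal to retinoic acid and is one source of the enzyme activity used to sort stem-like cells, was likewise near 0. It was listed at 0 in 8 libraries and at 2 or 3 counts in 7, and only vehicle 4 had more, with 11 counts or 0.33 CPM. The sums were 4 counts over combination, 8 over nab-paclitaxel, 5 over phenelzine and 11 over vehicle tumours. No difference in PROM1 or ALDH1A1 between the treatments was detectable at this depth. Across all human genes and libraries, a count of 1 was listed 14483 times, 2 was listed 24107 times, 3 was listed 24309 times and 4 was listed 10534 times, so a single count was rarer than 2 or 3. The low counts of PROM1 and ALDH1A1, and the limit of 3 counts for a listed 0, may therefore not be plain numbers of reads.

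KLF4, a zinc finger factor of epithelial differentiation and of reprogramming, had 171, 75.5, 124 and 91.9 CPM in combination tumours 1 to 4. Nab-paclitaxel tumours had 141, 66.1, 81.0 and 115 CPM, phenelzine tumours 89.3, 81.3, 99.5 and 90.7 CPM, and vehicle tumours 134, 93.0, 92.4 and 65.4 CPM. The 4 ranges overlapped, and the phenelzine tumours were the most alike. The average effect of nab-paclitaxel was a log2 fold change of 0.21, with an interval of -0.20 to 0.62 (edgeR adjusted p = 0.449). It turned to -0.25 without the 4 libraries that stood apart (edgeR adjusted p = 0.483). These 4 held the highest KLF4 values among tumours with nab-paclitaxel, so leaving them out was bound to lower it.

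SOX2, a high-mobility-group box factor of pluripotent and neural stem cells, was present at low counts, 17 to 155 per library. Combination tumours 1 to 4 had 1.55, 2.89, 8.001 and 3.60 CPM and nab-paclitaxel tumours 8.92, 2.59, 4.10 and 6.15 CPM. Phenelzine tumours had 1.74, 2.37, 3.27 and 2.83 CPM, and vehicle tumours 2.58, 1.98, 2.39 and 3.27 CPM. The 5 highest values were all in tumours with nab-paclitaxel, but so was the lowest, in combination 1, and no pair of groups was free of overlap. The mean was 4.73 ± 2.67 CPM with nab-paclitaxel and 2.55 ± 0.554 CPM without (SD, n = 8 each).

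The average effect of nab-paclitaxel on SOX2 was a log2 fold change of 0.87 (SE 0.312, 95% interval 0.20 to 1.54), with an unadjusted p of 0.0139 and an adjusted p of 0.0669 in edgeR. It passed without nab-paclitaxel 2 (edgeR adjusted p = 0.0302), combination 1 (0.0374) or combination 2 (0.0440) and in DESeq2 (0.0258). Without the 4 libraries that stood apart it was 0.37 (edgeR adjusted p = 0.434), and with the mouse share as a covariate 0.57 (edgeR adjusted p = 0.758). The fit without the 4 left out the highest SOX2 values, in nab-paclitaxel 1, combination 3 and nab-paclitaxel 4, and the lowest, in combination 1. The log2 fold change against vehicle was 0.65 with the combination (edgeR adjusted p = 0.379) and 1.08 with nab-paclitaxel (edgeR adjusted p = 0.190), and that of the combination against phenelzine 0.66 (edgeR adjusted p = 0.3797). Without combination 3 both values of the combination were 0.09, against vehicle (edgeR adjusted p = 0.935) and against phenelzine (edgeR adjusted p = 0.934). Without the 4 libraries that stood apart the value of nab-paclitaxel against vehicle was 0.39 (edgeR adjusted p = 0.694). Nab-paclitaxel 1 and 4 held the highest SOX2 values of their group, so leaving them out was bound to lower it.

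SOX9, a high-mobility-group box factor of cartilage and of mammary progenitors, had 118, 239, 134 and 247.96 CPM in combination tumours 1 to 4 and 148, 240.2, 243.4 and 211 CPM in nab-paclitaxel tumours. Phenelzine tumours had 255, 205, 223 and 192 CPM, and vehicle tumours 247, 186, 240.1 and 231 CPM. The 3 lowest values were in combination 1, combination 3 and nab-paclitaxel 1, the same tumours that were lowest in ITGA6, at 52.1%, 59.2% and 65.5% of the vehicle mean. These 3 tumours also had the 3 highest mouse shares of the 16. With the mouse share as a covariate the average nab-paclitaxel effect was 0.37 for ITGA6 and 0.29 for SOX9 on the log2 scale (edgeR adjusted p = 0.648 and 0.471). This fit cannot tell the share from the drug, and the part of host RNA in these values was not tested. The mean of SOX9 was 198 ± 55.1 CPM with nab-paclitaxel and 223 ± 25.8 CPM without (SD, n = 8 each). The average effect was a log2 fold change of -0.17, with an interval of -0.52 to 0.17 (edgeR adjusted p = 0.4596), and 0.13 without the 4 libraries that stood apart (edgeR adjusted p = 0.556). These 4 held the lowest SOX9 values among tumours with nab-paclitaxel, so leaving them out was bound to raise it.

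**Figure D4:**
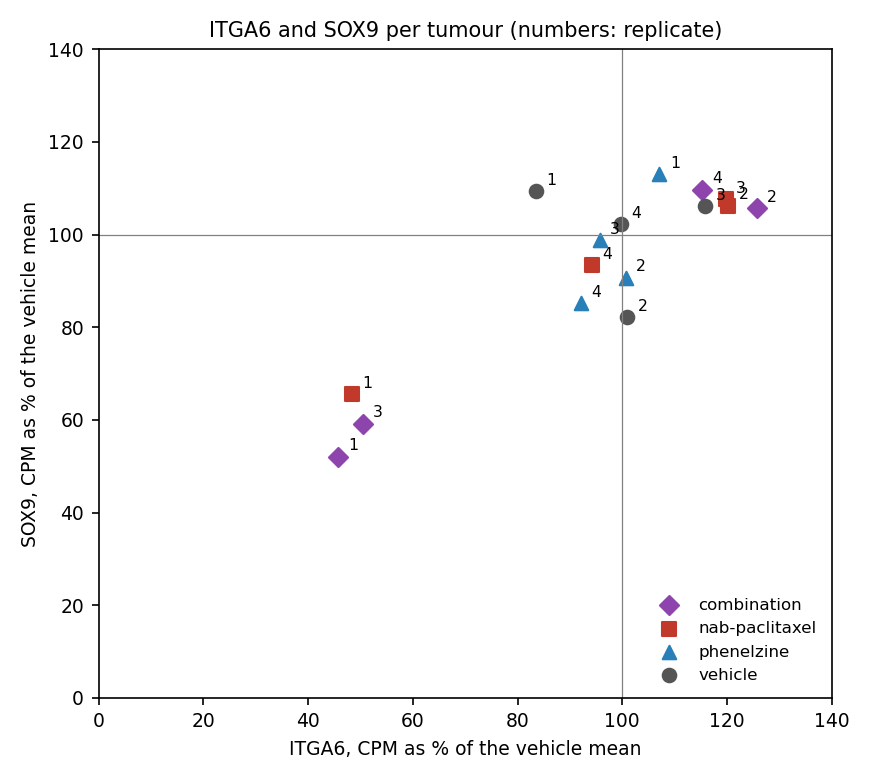
SOX9 against ITGA6 in each tumour, both as % of the mean of the 4 vehicle tumours, with replicate numbers. Combination 1, nab-paclitaxel 1 and combination 3 lie at 45.7% to 50.4% in ITGA6 and 52.1% to 65.5% in SOX9, and the other 13 tumours at 83.6% or more in ITGA6 and 82.1% or more in SOX9.

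The same tumours did not stand at the same end for every marker. Combination 1 was highest of the 16 in CD44 and KLF4, lowest in ITGA6, SOX9 and SOX2, and among the 4 highest in CD24. Combination 3 lay next to the top in CD24 and SOX2 and among the 3 lowest in ITGA6 and SOX9. Combination 2, given the same drugs, was highest in ITGA6 and lay within the vehicle range in CD24, KLF4, CD44, SOX2 and SOX9.

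Phenelzine averaged over both nab-paclitaxel states left the 6 genes without a call. The log2 fold changes, with their 95% intervals, were -0.04 (-0.26 to 0.18) for CD44, -0.68 (-1.65 to 0.29) for CD24 and -0.10 (-0.58 to 0.38) for ITGA6. They were 0.05 (-0.36 to 0.46) for KLF4, -0.22 (-0.88 to 0.45) for SOX2 and -0.12 (-0.46 to 0.22) for SOX9, all at an edgeR adjusted p of 0.99996. The intervals of CD44, ITGA6, KLF4 and SOX9 reached at most from 0.669-fold (ITGA6) to 1.38-fold (KLF4), while those of CD24 and SOX2 were wider. In the 5 comparisons between pairs of groups, the log2 fold changes of CD44, ITGA6, KLF4 and SOX9 ran from -0.29 (SOX9, combination against vehicle) to 0.36 (KLF4, combination against phenelzine), and the lowest edgeR adjusted p was 0.3904.

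**Figure D5:**
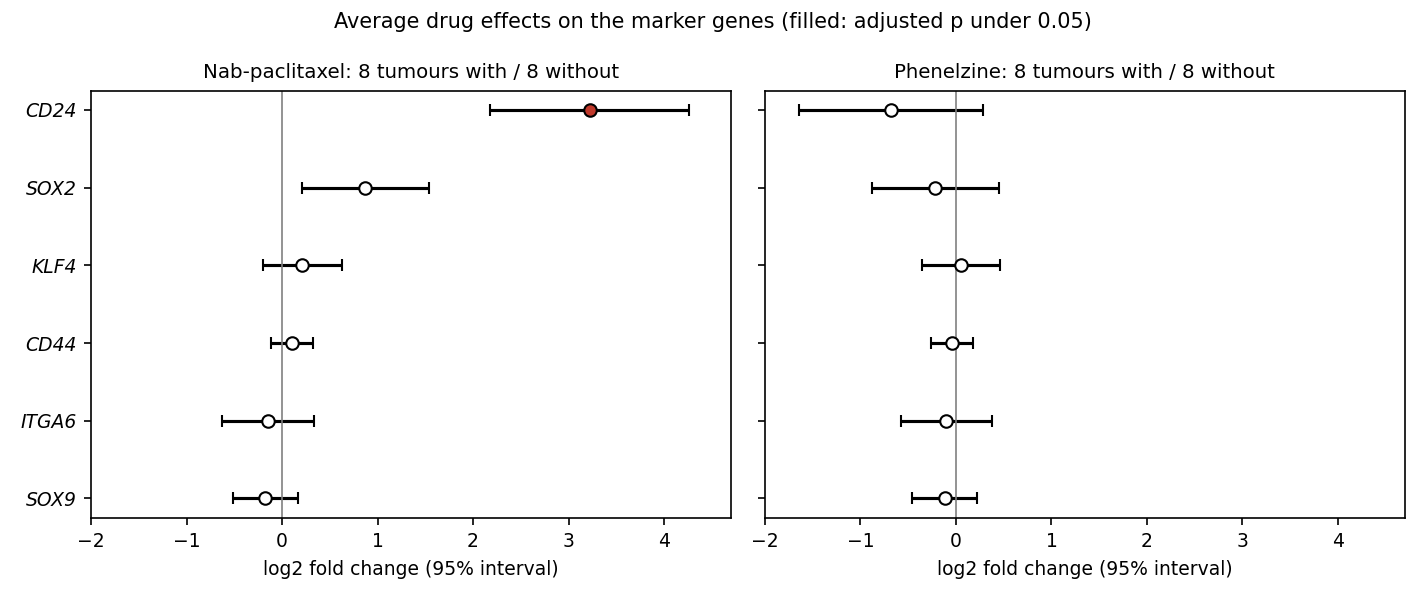
Average effect of nab-paclitaxel (left) and of phenelzine (right) on the 6 tested markers, with 95% intervals from the edgeR fit. Each value is the mean of the drug's log2 fold changes without and with the other drug, from 8 tumours with the drug and 8 without. It is not the ratio of the pooled means. Filled points passed an adjusted p of 0.05. CD24 stands at 3.22 for nab-paclitaxel, and every interval for phenelzine includes 0.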

How the data were processed

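Whole-number counts per gene were deposited by the authors as a human and a mouse matrix of the same 16 libraries. Per the submitters' processing notes, the tools included HISAT2 2.04, StringTie, Trimmomatic 0.36, edgeR and Picard, listed without roles, and the builds mm10 and hg38. The counted annotation, the use of strand and the way reads were split by species: not given in the sources used here. Genes carry Ensembl identifiers only. The symbols of the 8 markers come with the definition of the set, and 8 of 8 were found by symbol in RefSeq's gene table (GRCh38.p14). That table paired 0 of the other identifiers with symbols, so further stem cell, Notch, Wnt and Hedgehog genes, the identity markers of the line and of host cells, and genes of like pattern were not analysed here. The members and lists were chosen with earlier results of these data known.

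Tests used edgeR 4.0.16 (R 4.3.3) with its default filter on low counts (minimum 10), TMM factors, 1 mean per group over 16 libraries, quasi-likelihood F tests and Benjamini-Hochberg adjustment over 18131 genes. Standard errors are the log2 fold change over the square root of F, and intervals use 14.98 degrees of freedom. The limit of 3 counts for a listed 0 covers counting error only. Alternatives used DESeq2 1.42.0 and limma 3.58.1. The fit was tested on simulated data. All 8 markers were named. Replicate numbers showed no steady pairing of the tumours: the deviations of same-numbered tumours correlated above 0.1 in 4 of 24 pairs. Between nab-paclitaxel and combination tumours the correlations were 0.50, 0.57, -0.43 and -0.26 for numbers 1 to 4. Within groups, libraries differed far beyond counting noise (chi-square per degree of freedom at least 43.8).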

Additional observations from a re-analysis of the deposited data

Results flagged for a closer look

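Among the 32 sets of 4 tumours (8 markers in 4 groups), 3 held a tumour whose gap to the nearest other was nearly the group's whole range (Dixon's test, which chance flags in about 1 of 20 groups). CD44 in combination 1 was 784 CPM, with 552 to 591 CPM in the other combination tumours. Its gap was 0.8294 of the range, barely past the limit. PROM1 in combination 1 was 0.549 CPM, from 6 counts, and listed at 0 in the other combination tumours. ALDH1A1 in vehicle 4 was 0.33 CPM, from 11 counts, and listed at 0 in the other vehicle tumours. For PROM1 and ALDH1A1 the gap equals the range because all other tumours of the group are at 0. The rate of 1 in 20 does not apply to such tied counts.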

How the results depend on the processing

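Of 512 recomputed log2 fold changes of the markers, 475 kept direction and side of the threshold, 12 lost a call, 11 gained one and 14 turned sign. The 512 cover chosen values and not every marker in every comparison. CD44, ITGA6, KLF4 and SOX9 enter only with the average drug effects, CD24 with all 8 comparisons and SOX2 with part of them. CD24 averaged over phenelzine was 1.80 to 3.27 over the alternatives and 2.92 to 3.42 with single libraries left out. The number of markers called for the combination against phenelzine (1) was 0 in voom with quality weights, with the replicate block, in the fit of only the groups compared, with the mouse share as a covariate and without nab-paclitaxel 1 and 4 and combination 1 and 3, and 0 to 1 with single libraries left out. The CD24 log2 fold change behind it was 3.38 with the replicate block (edgeR adjusted p = 0.0575), 2.83 in voom (limma adjusted p = 0.0537) and 3.74 when only the pair of groups was fitted (edgeR adjusted p = 0.114), against 3.70. The block changed no other call of a marker, with 6 of 16 tumours closest to their own number. For the average nab-paclitaxel effect (1) the number was 2 in DESeq2, 0 with the mouse share as a covariate and 1 to 2 with single libraries left out. Against vehicle it was 1 in DESeq2 and in voom for nab-paclitaxel (0) and 1 in DESeq2 for the combination (0), and 0 to 1 for both with single libraries left out.

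With the mouse share as a covariate the average nab-paclitaxel effect turned to -0.10 for CD44, 0.37 for ITGA6, -0.26 for KLF4 and 0.29 for SOX9. Without the 4 libraries that stood apart it turned to -0.0048 for CD44, 0.27 for ITGA6, -0.25 for KLF4 and 0.13 for SOX9. For ITGA6, KLF4 and SOX9 the choice of these libraries set the direction of that shift. Among tumours with nab-paclitaxel they held the lowest ITGA6 and SOX9 values and the highest KLF4 values. Among the values counted above, with single libraries left out, signs turned for CD24 in the combination against nab-paclitaxel (-0.80 to 0.45). They also turned in the average phenelzine effect for CD44 (-0.11 to 0.011) and KLF4 (-0.074 to 0.16). None of the values that turned sign was past the threshold. The cause of the other sign turns was not tested.

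The count of all human genes called moved as well. For the average nab-paclitaxel effect it was 3131 and ran from 34 (mouse share as a covariate) to 4909 (1 library left out). For the combination against phenelzine it was 412, from 1 to 1832, and for the combination against vehicle 133, from 0 to 1574. For nab-paclitaxel against vehicle it was 30, from 0 to 1441. Other scalings moved the median gene by at most 0.0319 on the log2 scale. Depth limits PROM1, ALDH1A1 and, in part, SOX2.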
